A study of Mus musculus with 6 samples.

Results

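The 10 genes described here encode proteins that mark white blood cells in general, rather than 1 type of them, and were followed in mouse liver. They are Ptprc, Tyrobp, Fcer1g, Laptm5, Cd52, Cd53, Cd37, Cd48, Lcp1 and Itgb2. All probe sets whose annotation gave 1 of these symbols alone were taken, which gave 10 of 18193 named genes and 18 of the 45101 probe sets on the array. Livers of C57BL/6 mice fed a ketogenic diet (F3666), which is mostly fat with hardly any carbohydrate, were set against livers of C57BL/6 mice fed chow (Labdiet 5008), a grain-based diet. Feeding began at an age of 8 weeks, lasted 6 weeks and ended with collection of the livers in the morning from freely fed animals. Each diet had 3 one-colour arrays. The labels give RNA of between 2 and 3 animals per group, so it is not known whether every array came from its own mouse, and p-values measure the spread between arrays, which may in part be technical.

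Leukocytes share a set of surface and signalling proteins that hepatocytes are not known for. Receptors of the innate immune system that lack a signalling tail of their own pair with the adaptors encoded by Tyrobp (DAP12) and Fcer1g, whose tyrosine motifs (ITAMs) recruit the kinase SYK, while the phosphatase CD45, encoded by Ptprc, sets the activity of the SRC-family kinases upstream. Integrins that contain the beta2 chain encoded by Itgb2 carry leukocytes out of the blood. In the liver such cells include the resident macrophages (Kupffer cells), recruited monocytes, neutrophils and lymphocytes. In RNA of whole liver, more or fewer cells of a type cannot be told apart from more or less RNA per cell.

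On the ketogenic diet 8 of the 10 genes rose, each on its brightest probe set, and 0 fell in limma's moderated test (0 also at an unadjusted p under 0.05). The rises of the 7 genes measured above background on both diets lay between 3.23-fold for Fcer1g and 6.29-fold for Cd52, and Cd48 was at least 3.27-fold higher. Cd48 had a chow mean under the filter on low signals and was tested only through its ketogenic arrays, so its call was bound to go that way and adds nothing to the other seven. Lcp1 was higher on all ketogenic arrays but did not pass the threshold, and Cd37 lay near or below background on both diets. At the level of probe sets, 14 of 18 had a mean log2 signal above the filter of 3.35 (signal 10.2) and were tested. Of these, 9 rose and 5 did not pass, against 4.08% of all 22515 tested probe sets that rose and 0.564% that fell. Without Cd48, 8 of 13 rose. The ketogenic arrays were all higher than the chow arrays for 12 of the 14, or 11 of 13 without Cd48, against 21.6% of all tested probe sets. By brightest probe set, 4.74% of 11866 genes rose and 0.615% fell, 5.35% in all, and 24.0% were higher on all ketogenic arrays. The median log2 change was 2.25 over the 9 tested genes, 2.20 without Cd48 and 0.23 over all genes.

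**Figure D1:**
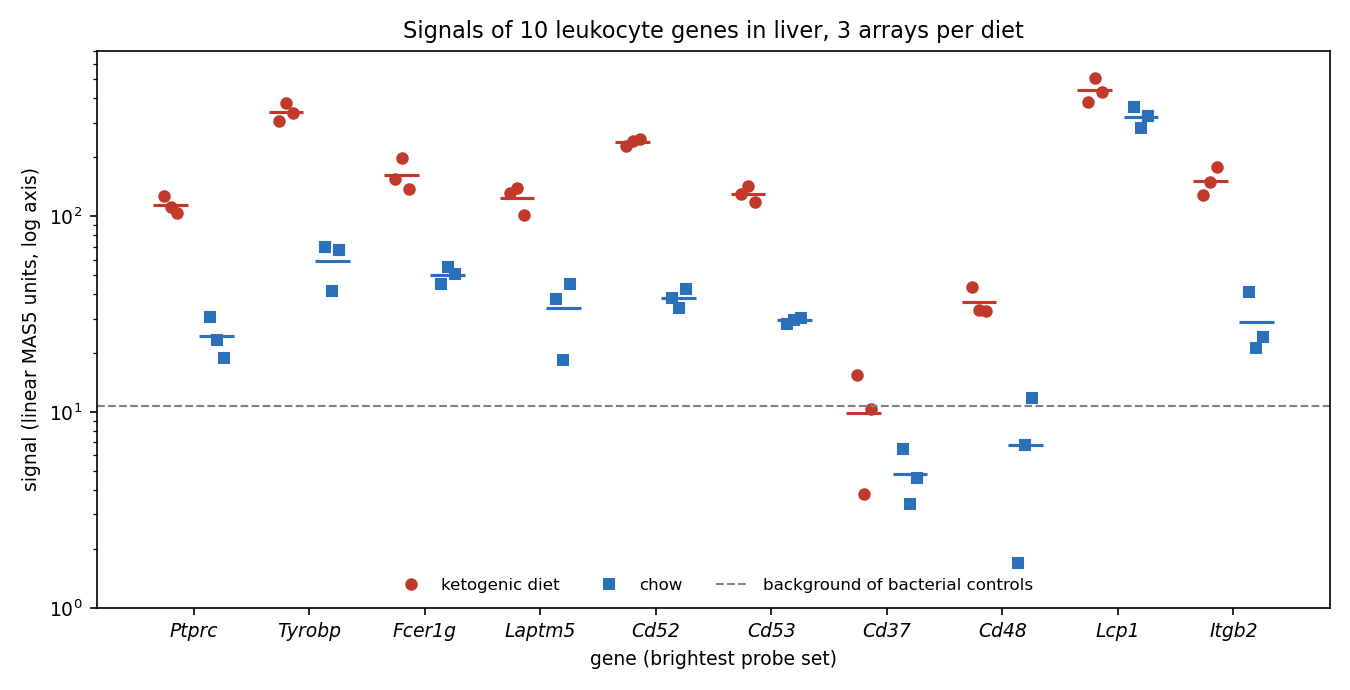
Signal of each of the 10 genes on every array (brightest probe set, log axis), with the 3 ketogenic arrays as red circles left of the 3 chow arrays as blue squares, their means as bars and the background of 10.7 as a dashed line. The diets do not overlap for 9 genes, and Cd37 lies around the background on both diets.

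The arrays themselves differed between the diets in some control measures. The 2% trimmed mean signal was 45.6 to 60.7 on ketogenic arrays and 39.6 to 53.1 on chow arrays, so the array levels overlapped. The mean signal of 18 hybridization control probe sets, which detect RNA of known amount added before hybridization, was 1148 to 1248 on ketogenic and 1457 to 1492 on chow arrays. For actin, the signal near the 3' end of the transcript over that near the 5' end, which grows as RNA breaks down, was 1.49 to 1.63 on ketogenic and 2 to 2.2 on chow arrays. The same ratio for Gapdh overlapped, at 0.775 to 0.812 on ketogenic and 0.761 to 0.972 on chow arrays. The part of RNA integrity in the results was not tested. Scaled to the hybridization controls, the same 8 genes rose, but this scaling moved the median log2 change of all tested probe sets by 0.28. It favoured rises and so could not test them. With 1 trimmed mean or the same quantiles, which moved that median by -0.21 and -0.23, 6 of the genes rose. The 11 measured hepatocyte markers, Alb and Ttr among them, were all bright enough to test, as the label liver requires, with a summed signal of 44066 to 51927 on ketogenic and 56733 to 61364 on chow arrays.

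The bases before the transcription start of these genes were searched for the cores of binding sites of PU.1 (GAGGAA) and RUNX (TGTGGT), transcription factors of blood cells. Whether these factors had a part in the changes was not tested. Both strands of 250 bases upstream were read from RefSeq promoter sequences of build GRCm38.p6, which held 9 promoters of 7 of the 10 genes. The 9 include promoters of Lcp1 and Cd37, which were not called as risen. GAGGAA was found in 4 of these 9 promoters, that of Cd37 among them, and in 23.3% of all 32851 promoters. TGTGGT was found in 2 of 9 and in 14% of all. The motifs did not overlap each other. Such a match describes the letters only and is not evidence of binding. The promoters of the genes that rose and hold a match are shown 5' to 3' on the gene's strand, with the matches in capitals.
Ptprc, chr1:138175306-138175555, minus strand: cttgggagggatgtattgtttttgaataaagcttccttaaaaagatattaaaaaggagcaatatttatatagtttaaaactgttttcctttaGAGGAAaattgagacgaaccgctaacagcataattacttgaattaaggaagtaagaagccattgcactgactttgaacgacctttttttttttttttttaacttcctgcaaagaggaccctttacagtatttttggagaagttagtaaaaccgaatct
Laptm5, chr4:130913066-130913315, plus strand: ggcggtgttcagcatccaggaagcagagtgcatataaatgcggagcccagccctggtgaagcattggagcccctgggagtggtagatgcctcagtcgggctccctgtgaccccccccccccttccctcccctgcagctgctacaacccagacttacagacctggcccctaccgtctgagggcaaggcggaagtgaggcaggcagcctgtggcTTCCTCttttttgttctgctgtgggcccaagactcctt
Cd53, chr3:106790150-106790399, minus strand: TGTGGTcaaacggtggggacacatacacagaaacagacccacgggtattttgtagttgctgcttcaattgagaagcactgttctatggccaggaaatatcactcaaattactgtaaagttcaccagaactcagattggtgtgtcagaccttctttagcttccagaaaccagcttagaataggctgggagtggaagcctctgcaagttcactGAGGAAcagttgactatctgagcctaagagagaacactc
Cd48, chr1:171681742-171681991, plus strand: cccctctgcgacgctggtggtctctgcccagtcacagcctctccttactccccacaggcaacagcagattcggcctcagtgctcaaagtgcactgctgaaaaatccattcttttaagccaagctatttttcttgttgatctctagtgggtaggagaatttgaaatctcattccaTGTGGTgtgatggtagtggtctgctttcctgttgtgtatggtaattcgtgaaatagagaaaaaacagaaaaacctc
The PU.1 core begins 39 bases before the start of Cd53 on the gene's strand and 38 bases before that of Laptm5 on the opposite strand, where it reads TTCCTC. In the promoter of Ptprc it begins 158 bases before the start, and a second annotated Ptprc promoter, like those of Fcer1g and Lcp1, holds neither motif.

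Ptprc encodes CD45, the receptor tyrosine phosphatase found on all nucleated blood cells. Its main probe set (1422124_a_at) had signals of 126.6, 112 and 103.6 on ketogenic arrays, against 30.7, 23.4 and 18.9 on chow arrays. The lowest ketogenic value lay more than 3 times above the highest chow value. In limma's moderated test the log2 change was 2.25 ± 0.27 (SE, n = 3 per diet), with a 95% interval of 1.64 to 2.87 and adjusted p = 0.00504. A second, dimmer probe set of Ptprc (1440165_at) had 10.7, 5.6 and 4.8 on ketogenic and 4.3, 1.9 and 0.2 on chow arrays. These values lay at or under the background of 10.7, the level of bacterial control probe sets, so they give no fold. Of 10 tested genes that encode partners and substrates of CD45, 1 rose and 0 fell, with a median log2 change of 0.40. The gene that rose was Lgals1, which encodes the CD45-binding lectin galectin-1, by 1.96 (adjusted p = 0.0476). This call did not hold without any 1 array except chow array 1 (up to 0.141) nor with any scaling except that as deposited and that to the hybridization controls (up to 0.0852).

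Both ITAM adaptors rose. Tyrobp encodes DAP12, the partner of TREM and other activating receptors of myeloid and natural killer cells. Its signals were 305.1, 377.6 and 335.6 on ketogenic arrays, against 69.5, 41.4 and 67.1 on chow arrays. The log2 change was 2.55 ± 0.29 (SE), with a 95% interval of 1.90 to 3.20 and adjusted p = 0.00381. Fcer1g encodes the common gamma chain of Fc receptors. It had 154.3, 197.8 and 137.8 on ketogenic and 44.9, 55.1 and 50.5 on chow arrays. The log2 change of Fcer1g was 1.69 ± 0.26 (SE), with a 95% interval of 1.11 to 2.27 and adjusted p = 0.0115. For both genes ketogenic array 2 was the highest of its diet, and that array also had the highest trimmed mean.

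The receptors that pair with these adaptors, or carry an ITAM-like motif themselves, were measured as a list. It also held Fcgr2b, an inhibitory IgG receptor that does neither. Of 26 receptor genes on the array 14 were bright enough to test. Of these 5 rose and 0 fell, with a median log2 change of 1.13, against 0.23 over all genes. Clec7a, the beta-glucan receptor dectin-1, had signals of 214.3, 178.3 and 325.7 on ketogenic arrays, against 26, 25.5 and 32 on chow arrays, and rose by 3.07 (log2, adjusted p = 0.00184). The Fc receptors Fcgr3, Fcgr1 and Fcgr4, which bind antibody of the IgG class and need the gamma chain, rose by 2.30, 1.67 and 1.14 (adjusted p = 0.0166, 0.0316 and 0.0421). These 3 calls were less firm: that of Fcgr3 was lost without ketogenic array 2 or 3 (0.0526 and 0.0628), that of Fcgr1 without any 1 array except chow array 3 (up to 0.0873) and that of Fcgr4 without any 1 array (up to 0.131). Of the list, 2 genes rose without ketogenic array 2 or 3, 3 without ketogenic array 1 or chow array 1 or 2, and 4 without chow array 3. Over the 5 scalings of the arrays (as deposited and 4 others) between 3 and 12 rose.

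Downstream of the adaptors, 2 of 18 tested kinases, adaptors and phosphatases of ITAM signalling rose and 0 fell (1 was lower at an unadjusted p under 0.05), with a median log2 change of 0.82. Blnk, a scaffold that SYK phosphorylates, had 47.9, 41.6 and 64 on ketogenic and 14, 14.2 and 12.9 on chow arrays and rose by 1.88 (adjusted p = 0.00813). Lcp2, which encodes the scaffold SLP-76, had 38.7, 46.6 and 41 on ketogenic and 13.7, 15.5 and 13.1 on chow arrays and rose by 1.58 (adjusted p = 0.0113). The diets did not overlap for either gene, and both calls held with any 1 array left out. Syk itself, named after its values were seen, had 42, 49.9 and 49.3 on ketogenic and 32.1, 19.1 and 21 on chow arrays (adjusted p = 0.0862). Pik3cd, a lipid kinase subunit of leukocytes that was also named after its values were seen, had 263.7, 840.6 and 305.6 on ketogenic and 1469.1, 803.1 and 1186.3 on chow arrays, which overlap, with a log2 change of -1.46 (adjusted p = 0.117). When the arrays were scaled to the hybridization controls, 9 genes of the list rose and 0 fell, while 1 fell without ketogenic array 2, with low signals raised to 16, with 16 added, and with the filter at the 75th percentile.

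Itgb2 encodes the beta2 chain (CD18) shared by the leukocyte integrins LFA-1, Mac-1 and CD11c/CD18. Its signals were 127.9, 149.2 and 178.9 on ketogenic arrays, against 40.9, 21.3 and 24.2 on chow arrays. Chow array 1 was the highest of the chow arrays and still lay well under every ketogenic array. The log2 change was 2.45 ± 0.31 (SE), with a 95% interval of 1.73 to 3.16 and adjusted p = 0.00635. Of 11 tested genes for its alpha partners, ligands and activators 5 rose and 0 fell, with a median log2 change of 0.96 (between 4 and 9 rose over the scalings). Among the 5 was Cytip, with a mean signal of 9.67 on chow arrays, under the filter (10.2), so its call was bound to go that way. Fermt3, which encodes kindlin-3, an activator of leukocyte integrins, had 58.5, 80.6 and 72.6 on ketogenic and 14, 11.8 and 16.8 on chow arrays and rose by 2.32 (adjusted p = 0.00381). Icam1, the ligand of LFA-1 and Mac-1, rose by 2.08 (adjusted p = 0.011). Of the alpha chains, Itgax (CD11c) had 42.2, 38.7 and 72.6 on ketogenic and 15.3, 9.9 and 10 on chow arrays and rose by 2.10 (adjusted p = 0.0125). Itgal, the alpha chain of LFA-1, rose by 1.82 (adjusted p = 0.0257), a call lost without any 1 array except chow array 1 (up to 0.0803). Itgam, the alpha chain of Mac-1, named after its values were seen, was below the filter, with a mean signal of 6.3 on ketogenic and 8.67 on chow arrays. With 1 array left out 3 of the list rose, except without chow array 1, where 5 did.

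Cd52 and Cd48 encode small surface proteins held by a lipid (GPI) anchor. Cd52 had signals of 229, 242 and 249 on ketogenic arrays, against 38.2, 34.1 and 42.6 on chow arrays. Among the 7 of these leukocyte genes that rose and were above background on both diets its change was the highest, with a log2 change of 2.65 ± 0.24 (SE), a 95% interval of 2.12 to 3.19 and adjusted p = 0.00176. Cd48, a ligand of CD2 and of the receptor CD244, had 43.5, 33.1 and 32.9 on ketogenic arrays, against 1.7, 6.8 and 11.8 on chow arrays. On chow 1 of its values lay above the background of 10.7, and the mean log2 signal lay below it. The rise was at least 3.27-fold when chow values under the background are raised to it, with a fitted adjusted p of 0.0383. Its mean log2 signal of 2.36 on chow lay under the filter of 3.35, so it entered the test through the ketogenic arrays alone, and with no filter the adjusted p was 0.204. The call of Cd48 was lost without ketogenic array 1, 2 or 3 (0.0858, 0.0928 and 0.119), without chow array 2 (0.0543), and when arrays were brought to 1 median (0.0854), 1 trimmed mean (0.106) or the same quantiles (0.109).

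Of 7 tested genes of the SLAM family around CD48, with Cd2 and other anchored proteins, 2 rose and 0 fell, with a median log2 change of 1.33. Cd84, a SLAM receptor of myeloid cells and platelets, had 56.1, 46.1 and 56 on ketogenic and 12.9, 20.3 and 17.3 on chow arrays and rose by 1.67 (adjusted p = 0.0137). Cd24a, a heavily glycosylated anchored protein that is not restricted to leukocytes, had 147.3, 106.1 and 197.1 on ketogenic and 35.4, 12 and 13.7 on chow arrays and rose by 3.02 (adjusted p = 0.00992). Without ketogenic array 3 neither passed (0.058 and 0.0533), and without ketogenic array 1 Cd84 did not (0.0533). The receptors of CD48 themselves, named after their values were seen, were below the filter, with mean signals of 2.37 on ketogenic and 2.03 on chow arrays for Cd2, and 6.97 on ketogenic and 10.1 on chow arrays for Cd244a.

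Cd53 and Cd37 encode tetraspanins, membrane organisers with 4 membrane-spanning stretches that are largely restricted to leukocytes. Cd53 had signals of 129.4, 142.7 and 118.4 on ketogenic arrays, against 28.3, 29.6 and 30.2 on chow arrays. The log2 change was 2.14 ± 0.23 (SE), with a 95% interval of 1.61 to 2.67 and adjusted p = 0.00327, and it lay between 2.08 and 2.21 with any 1 array left out. A second probe set of Cd53 (1459744_at) had 1.4, 11.1 and 5.2 on ketogenic and 1.9, 11.6 and 1.8 on chow arrays, on average below the background on both diets. Cd37, known mostly from B cells, was below the filter on both of its probe sets. The brighter one (1425736_at) had 15.4, 3.8 and 10.4 on ketogenic and 6.5, 3.4 and 4.6 on chow arrays, and the dimmer one (1419206_at) 3.4, 6.5 and 4.5 on ketogenic and 4.5, 4.2 and 2.4 on chow arrays. The diets overlapped for both, so no change was detectable at this signal. Of 16 tested further tetraspanins, most of them found in many cell types, 2 rose and 0 fell, with a median log2 change of 0.38. Cd9 rose by 2.18 (adjusted p = 0.0137), a call lost without ketogenic array 3 (0.0628), where 0 of the list rose. Tspan14 rose by 1.30 (0.0247), a call lost without any 1 array except chow array 2 (up to 0.0999). Without ketogenic array 1 or 2, 1 of the list rose.

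Laptm5 encodes a lysosomal membrane protein of blood cells, and its 5 probe sets disagreed. The brightest (1426025_s_at) had 131.7, 139.6 and 100.9 on ketogenic arrays, against 38, 18.4 and 45.3 on chow arrays. Its log2 change was 1.96 ± 0.37 (SE), with adjusted p = 0.0227. The call was lost without ketogenic array 1, 2 or 3 (0.0648, 0.0761 and 0.0649), and when arrays were brought to 1 trimmed mean (0.0505) or the same quantiles (0.0655). A second probe set (1436905_x_at), with 119.6, 110.8 and 122.6 on ketogenic and 39.5, 23.4 and 26.9 on chow arrays, gave a change of nearly the same size, 2.01 ± 0.27 (SE) with adjusted p = 0.00784. That call held with any 1 array left out and under the 4 other scalings. Probe set 1417721_s_at had 81.3, 89.3 and 70.7 on ketogenic and 32.4, 44.9 and 44.6 on chow arrays, which do not overlap either, with a smaller change of 0.99 (adjusted p = 0.0688).

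The other two Laptm5 probe sets did not move with these. Probe set 1447742_at had 17.6, 54.5 and 33.7 on ketogenic and 43.5, 33.6 and 42.8 on chow arrays, which overlap, with a log2 change of -0.32 (adjusted p = 0.695). Probe set 1459841_x_at had 16.1, 16.8 and 16 on ketogenic and 26.6, 20.9 and 20.3 on chow arrays, all lower on the ketogenic diet, with a log2 change of -0.46 (adjusted p = 0.329). It was the 1 tested probe set of the 14 that was lower on all ketogenic arrays, against 5.06% of all tested probe sets. The annotation gives an accession for 1426025_s_at and 1417721_s_at and none for the other three. With the mean of its probe sets, Laptm5 had a log2 change of 0.84 (adjusted p = 0.0788), so its call rests on which probe set represents it.

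**Figure D2:**
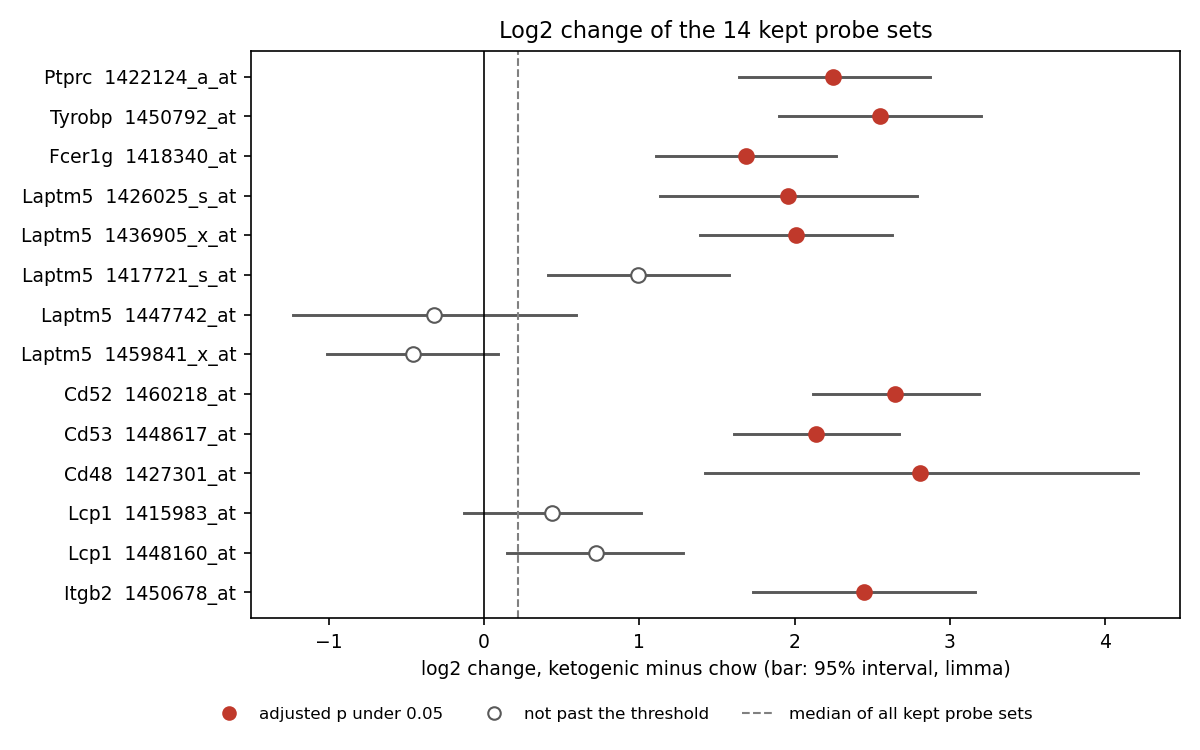
Log2 change (ketogenic minus chow) of the 14 tested probe sets with 95% intervals, filled where adjusted p was under 0.05, and the median of all tested probe sets, 0.22, as a dashed line. The 5 probe sets of Laptm5 spread from -0.46 to 2.01, and both probe sets of Lcp1 lie below 1.

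Lcp1 encodes L-plastin, which bundles actin filaments in leukocytes. Its brighter probe set (1415983_at) had 381.8, 506.3 and 429.9 on ketogenic arrays, against 361.4, 281.3 and 325.9 on chow arrays. The other (1448160_at) had 149, 176.1 and 162.3 on ketogenic and 118.4, 89.6 and 90.3 on chow arrays. The diets did not overlap on either, but the changes were small, 0.44 with a 95% interval of -0.13 to 1.01 (adjusted p = 0.365) and 0.72 with an interval of 0.15 to 1.28 (adjusted p = 0.15). The interval of the brighter probe set lay below that of each of the 8 genes that rose. The brighter one passed under none of its 17 alternatives, and the other passed only when scaled to the hybridization controls (0.03). The 1.36-fold difference of the brighter probe set is under the smallest change called among all tested probe sets, a log2 change of 0.97.

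Other regulators of actin in leukocytes were compared as a list of 19 tested genes, of which 7 rose and 0 fell, with a median log2 change of 0.90. Among the 7 were Coro1a, Aif1 and Myo1f, with mean signals of 5.6, 8.4 and 8.4 on chow arrays, under the filter (10.2). They were tested only through their ketogenic arrays, so their calls were bound to go that way. Tmsb4x, which encodes the actin-binding peptide thymosin beta-4, had 1930.3, 2256.7 and 2070 on ketogenic and 844, 646.3 and 842.4 on chow arrays and rose by 1.43 (adjusted p = 0.0169). Arhgdib rose by 1.75 (0.00999), and Capg, an actin-capping protein of macrophages, by 2.20 (0.00381). Rac2 rose by 1.79 (0.0307). The calls of Arhgdib and Capg held with any 1 array left out. That of Tmsb4x was lost without any 1 ketogenic array or chow array 2 (up to 0.0636), and that of Rac2 without any 1 array except ketogenic array 3 (up to 0.0976). Of the list, 2 genes rose without ketogenic array 2, 4 without ketogenic array 3 or chow array 2, and between 6 and 10 over the scalings. Pls3, a plastin of non-blood cells, named after its values were seen, showed a log2 change of -0.21 (adjusted p = 0.709).

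Within a diet the genes did not all rank the arrays alike. Ketogenic array 2 was highest for 5 of the 9 tested genes and lowest for none, and ketogenic array 3 was lowest for 5. Chow array 2 was lowest for 5 of the 9, while chow arrays 1 and 3 were each highest for 4. Across the 6 arrays, the log2 signal of each gene correlated with the mean of the other eight at 0.803 (Cd48) to 0.995 (Tyrobp). These 6 points form 2 groups, so the correlation mostly restates the difference between the diets. The 5 genes outside the list with the closest profile over the 6 arrays were Clec4a3, Coro1a, Tgfb1, Ppp1r18 and Tmsb4x, with Pearson correlations of 0.9992, 0.9977, 0.9972, 0.9969 and 0.9967. They were picked for a profile that differs between the diets. Their rises therefore follow from the selection and add no support. Coro1a, which encodes coronin-1A, an actin regulator of leukocytes, had 69.3, 80 and 68.1 on ketogenic and 5.9, 4.8 and 6.1 on chow arrays, and rose at least 6.75-fold (adjusted p = 0.000467), tested through its ketogenic arrays alone. Clec4a3, a C-type lectin of myeloid cells, had 40.6, 45.2 and 37.3 on ketogenic and 11.1, 9 and 11.3 on chow arrays, and rose at least 3.71-fold (0.00548). Tgfb1, the cytokine TGF-beta1, and Ppp1r18, a phosphatase subunit, rose 2.83-fold and 2.4-fold (0.0137 and 0.0241). The call of Tgfb1 was lost without ketogenic array 1 or 2 (up to 0.0531) and that of Ppp1r18 without any 1 array except chow array 3 (up to 0.0861).

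Markers of single leukocyte types were set beside these shared genes. Of 16 tested macrophage markers 11 rose and 0 fell, with a median log2 change of 1.92, against 0.23 over all genes. The summed signal of the list was 4392 to 7215 on ketogenic and 1468 to 1820 on chow arrays. Csf1r, the receptor of the macrophage growth factor, had 1144.1, 1312.6 and 938.6 on ketogenic and 438.1, 313 and 465.5 on chow arrays and rose by 1.49 (adjusted p = 0.0213). Cd5l, a secreted protein of tissue macrophages, rose by 2.17 (0.0124), and the complement chain C1qc by 2.11 (0.00635). Clec4f, a lectin restricted to Kupffer cells, rose by 1.73 (0.0277). Timd4, the dimmest of the list and a marker of long-lived Kupffer cells, had 36.6, 46.5 and 8.1 on ketogenic and 16.4, 21.6 and 12 on chow arrays, which overlap, with a log2 change of 0.57 (0.638). Of the list, 7 genes rose without ketogenic array 2, and between 10 and 13 over the scalings. The calls of Cd5l and C1qc held with any 1 array left out, while that of Csf1r was lost without any 1 ketogenic array or chow array 2 (up to 0.0764), and that of Clec4f without any 1 array except ketogenic array 3 (up to 0.0897).

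Most T cell and natural killer cell markers were too dim to test, and whether the lymphocyte lists differ from the macrophage list was not tested. Of 13 T cell markers 3 were bright enough to test, and 0 of these passed in limma (0 also at an unadjusted p under 0.05 and in each of the alternatives). Their summed signal was 124 to 140 on ketogenic and 91.3 to 137 on chow arrays. Cd8a had 26.9, 49.5 and 27.3 on ketogenic and 22.2, 43 and 23.8 on chow arrays, and Cd3d, part of the T cell receptor complex, lay between 0.7 and 3.8 on ketogenic and between 0.5 and 2.6 on chow arrays. Of 11 natural killer cell markers 3 could be tested and 0 passed (1 at an unadjusted p under 0.05), with a summed signal of 105 to 128 on ketogenic and 77.1 to 96.2 on chow arrays, which do not overlap. Klrk1, an activating receptor of natural killer cells, differed by 1.02 (log2, adjusted p = 0.154), and Klra8 was the dimmest, between 0.3 and 3.7 on ketogenic and between 0.2 and 4.1 on chow arrays. Of 10 tested B cell markers 1 rose, with a median log2 change of 0.09 and a summed signal of 195 to 276 on ketogenic and 191 to 223 on chow arrays. It was Cd72, an inhibitory receptor of B cells that is also found on some myeloid cells, by 1.85 (0.0268), a call lost without any 1 array except chow array 1 (up to 0.0919). Pax5, the transcription factor that defines B cells, had 32.9, 21.6 and 16.4 on ketogenic and 34, 38.3 and 25.7 on chow arrays, with a log2 change of -0.51 (0.418), and Ebf1, the dimmest, lay between 1.5 and 8.5 on ketogenic and between 2.2 and 9.3 on chow arrays.

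Markers of the other myeloid cells gave a mixed picture. Of 8 tested neutrophil markers 3 rose and 0 fell (2 were lower at an unadjusted p under 0.05, and 1 fell with the arrays brought to 1 trimmed mean, 1 median or the same quantiles), while the median log2 change of the list was -0.35 and its summed signal was 152 to 218 on ketogenic and 148 to 192 on chow arrays. S100a8 and S100a9, 2 calcium-binding proteins abundant in neutrophils and monocytes, rose at least 2.51-fold and 2.42-fold (adjusted p = 0.00381 for both), and Csf3r, the G-CSF receptor, at least 2.89-fold (0.00861). All 3 had chow means under the filter and were tested through the ketogenic arrays alone. The call of S100a9 was lost with low signals raised to 16 (0.0736), and that of Csf3r with no filter (0.0842). The granule protease Elane had 27.7, 22.7 and 15.1 on ketogenic and 42.6, 23.2 and 58.3 on chow arrays, with a log2 change of -0.87 (0.26), and Camp lay under 2 on all arrays. Of 7 tested monocyte markers 2 rose, Plac8 by 1.93 (0.00548) and Ms4a6c by 1.02 (0.0481, lost without any 1 array, up to 0.161). The summed signal of the monocyte list was 1923 to 2739 on ketogenic and 1717 to 2198 on chow arrays, most of it from Fn1, which hepatocytes also make (log2 change 0.10). Chil3 was at or under 10.2 on all arrays. Of 7 tested dendritic cell markers Itgax and Cd74, the invariant chain of MHC class II, rose, Cd74 by 2.21 (0.0169). The call of Cd74 was lost without ketogenic array 3 (0.0608) and with arrays brought to 1 trimmed mean (0.0681) or the same quantiles (0.0778). The summed signal of the dendritic cell list was 688 to 1315 on ketogenic and 220 to 368 on chow arrays. Ccr7 lay at or under 1.5 on all arrays. Of mast cell and basophil markers 2 could be tested and 0 passed (1 at an unadjusted p under 0.05), with a summed signal of 88.8 to 118 on ketogenic and 52.6 to 106 on chow arrays, and of 6 tested platelet markers 0 passed (0 unadjusted), with a summed signal of 155 to 222 on ketogenic and 159 to 208 on chow arrays. The brightest of these, Cma1 and Itga2b, had log2 changes of -0.70 and 0.39, and the dimmest mast cell marker, Mcpt1, lay at or under 1.7. No marker in any of these lists was at 0 on all arrays.

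Markers of other liver cells and of dividing cells moved with the diet as well. Of 9 tested stellate cell markers 6 rose, among them the collagen genes Col3a1 and Col1a2 by 2.96 and 2.30 (adjusted p = 0.00727 and 0.0138), the regulator Rgs5 by 1.49 (0.0148) and the receptor Pdgfrb by 1.73 (0.0341), with a summed signal of 2001 to 2993 on ketogenic and 558 to 831 on chow arrays. Without ketogenic arrays 1 and 3, 3 and 2 of them rose, and over the scalings between 1 and 8. Rgs5 was not past the threshold without ketogenic array 1 or 3 (up to 0.0669), and Pdgfrb not without either of these or chow array 2 or 3 (up to 0.0976). Of 8 tested proliferation genes 5 rose. Mcm6, Top2a and Ccna2 rose at least 6.52-fold, 3.37-fold and 2.84-fold, these 3 tested through the ketogenic arrays alone. Mki67, which also rose, was dimmer than these, so its chow mean lay under the filter too. The calls of all of these were bound to go that way. Cdk1 rose by 2.05, a call lost without any 1 array except chow array 1 (up to 0.0869) and with no filter (0.151). Without ketogenic array 2 or 3 or chow array 3 the count of the list was 3, 2 and 3. Of 10 tested endothelial markers 1 rose and 0 fell (6 were higher at an unadjusted p under 0.05), with a median log2 change of 0.73. Between 1 and 5 of them rose over the scalings, and 2 without chow array 1. The marker that rose was Tek, by 1.19 (0.0411, lost without any 1 array except chow array 1, up to 0.158). The summed signal of the endothelial list was 1316 to 1637 on ketogenic and 700 to 1119 on chow arrays. Of 11 tested hepatocyte markers Cps1 and Tat fell by 1.82 and 2.03 (0.0169 and 0.0148), 0 of them past the threshold without ketogenic array 3 and 1 without ketogenic array 2. Of cholangiocyte markers and of red cell precursors, 3 and 2 were tested and 0 passed (0 and 2 at an unadjusted p under 0.05). Of the red cell precursor list 1 gene fell under 8 alternatives, 3 of them scalings. Sox9 had a log2 change of 0.37 (0.505) and Alas2, an enzyme of heme synthesis in red cell precursors, one of -1.01 (0.0755). The part of these cell types in the rise of the leukocyte genes was not tested.

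**Figure D3:**
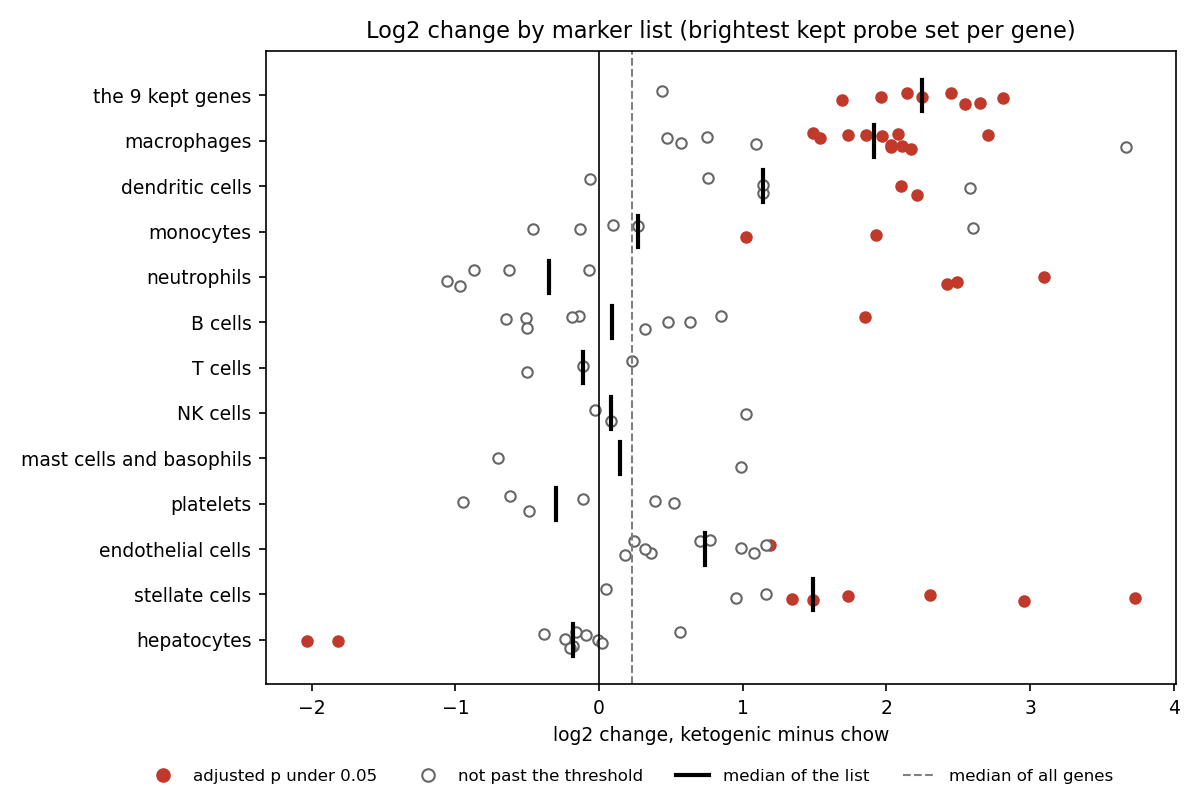
Log2 change (ketogenic minus chow) of the 9 tested leukocyte genes and of markers of 12 cell types, 1 point per gene by its brightest tested probe set, filled where adjusted p was under 0.05. Black bars are list medians, 2.25 for the leukocyte genes, 1.92 for macrophages, -0.11 for T cells and 0.08 for natural killer cells, and the dashed line is the median of all genes, 0.23.

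The size of the changes followed the scaling of the arrays, and their direction did not. With the arrays as deposited and with the 4 other scalings, the log2 change was 2.37 to 2.93 for Cd52, 2.28 to 2.83 for Tyrobp, 2.18 to 2.73 for Itgb2, 1.99 to 2.53 for Ptprc, 1.85 to 2.42 for Cd53 and 1.39 to 1.97 for Fcer1g. These 6 genes passed the threshold under every scaling and with any 1 array left out. With no filter on low signals, with 45037 probe sets in the adjustment, Cd52, Cd53 and Tyrobp passed, while Ptprc, Itgb2 and Fcer1g had adjusted p = 0.0506, 0.0643 and 0.0716. Each of these scalings moved the median of all tested probe sets, by -0.23 with quantile normalization, by -0.21 with 1 trimmed mean, by -0.11 with 1 median and by 0.28 with the hybridization controls.

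**Figure D4:**
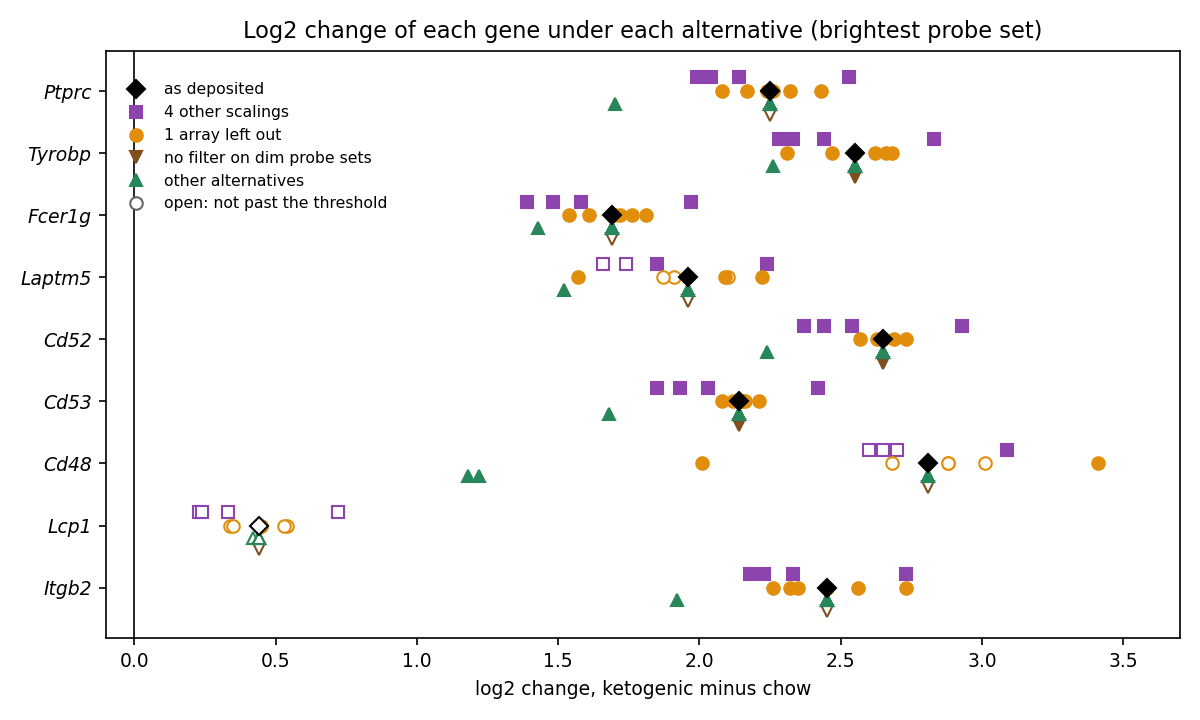
Log2 change (ketogenic minus chow) of the 9 tested genes by brightest probe set, as deposited (diamonds), with 4 other scalings (squares), with 1 array left out (circles), with no filter (downward triangles) and with the other alternatives (upward triangles), open where adjusted p was 0.05 or more. All points lie above 0, and open points are most frequent for Cd48, Laptm5 and Lcp1.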

How the data were processed

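The deposited values are linear signal intensity per probe set. According to the submitters' processing notes, GCOS and MAS5 made them, and neither their versions nor the scaling target were stated there. The authors' normalization was kept. Signals were raised to a floor of 1.1 (10th percentile of the table), transformed to log2 and kept where the mean over the 6 arrays reached the table's median, 3.35. This left 22515 of 45101 probe sets, the 64 controls being left out. Symbols came from the platform annotation (34958 probe sets with 1 symbol, 932 with several, 9211 unnamed), and 34754 matched RefSeq. A linear model (lmFit, eBayes; limma 3.58.1, R 4.3.3) gave two-sided p-values, adjusted over all tested probe sets by Benjamini and Hochberg's method and called under 0.05. It rested on 4 residual and 4.68 prior degrees of freedom. The model was also run on simulated data, drawn from its own fitted spread. Such data meet its assumptions and cannot show how it fares on low signals or on a shift between the diets. Each gene is shown by its brightest probe set (highest mean log2 signal). The background, 10.7, is the level that 95% of 27 control probe sets for bacterial RNA stay under, averaged over arrays as log2. If 1 diet averaged below it, values under it were set to it, giving an "at least" fold. Folds are ratios of geometric means. Log2 signals correlated at 0.928 to 0.954 within diets and at 0.879 to 0.92 between them. Precision is limited by the number of arrays.

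From each list, up to 4 genes past the threshold were named, brightest first, or else the brightest, and for leukocyte types also the brightest and dimmest marker. Of genes with a profile like the members', the 5 with the highest correlation were named. Genes, lists and tests were chosen with earlier results of these data known. A gene can belong to several lists. The alternatives were 4 array scalings, 2 ways to treat low signals, 2 filters, another prior, 3 choices of probe sets and leaving out each array.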

Additional observations from a re-analysis of the deposited data

How the results depend on the processing

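No paired analysis was possible because the replicate numbers follow the order of deposition and pair no arrays across the diets. Of all tested probe sets 1045 changed, 918 higher and 127 lower. The count was 3338 with arrays brought to equal hybridization controls, 2123 with low signals raised to 16, 2269 with 16 added before log2, 1872 with a trended robust prior and 178 of 45037 with no filter, and 330 to 949 with 1 array left out (461, 441 and 330 without ketogenic arrays 1, 2 and 3, 633 and 649 without chow arrays 2 and 3). The share of changed probe sets that were higher was 87.8% as deposited, 65.9% with a common trimmed mean, 77.4% with a common median, 64.5% with quantile normalization and 96.3% with the hybridization controls.

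Of the 8 leukocyte genes that rose, 6 to 8 passed with 1 array left out and under the scalings, and 7 with the mean of probe sets, with the filter at the 75th percentile (which left Cd48 untested) and with probe sets of suffix _x_at or _s_at, which may bind more than 1 transcript, left out, where a Laptm5 probe set that did not pass took its place. With no filter, where 45037 probe sets were tested, 3 genes and 3 probe sets passed, those of Cd52, Cd53 and Tyrobp, with the others at adjusted p between 0.0506 and 0.204. The direction was the same under all alternatives for 13 of the 14 tested probe sets. The exception was Laptm5 1447742_at, with -0.32 on the log2 scale over all arrays and -0.70 to 0.11 with 1 left out, the value above 0 without ketogenic array 1 (the cause was not tested). Of 45 other named genes past the threshold, 26 lost the call without at least 1 array 13 under at least 1 other scaling and 36 with no filter, and 0 changed sign. With no filter, 2 macrophage markers, 1 ITAM receptor gene, 2 actin regulators and 0 stellate cell markers rose, against 11, 5, 7 and 6 with it.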
